A study of Homo sapiens with 10 samples.

Results

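The 35 genes described here carry a symbol that starts with MAPK, MAP2K, MAP3K or MAP4K, the names given to the kinases of the mitogen-activated protein (MAP) kinase cascades and to a few of their partners. They were taken from the 7713 genes that a single-symbol probe set of the array represents, and each of the 35 was measured by 1 probe set. By name they divide into 3 MAP4K, 11 MAP3K, 5 MAP2K and 9 MAPK genes, 3 MAP kinase-activated kinases (MAPKAPK), 2 scaffold genes of the JNK pathway (MAPK8IP1 and MAPK8IP2) and 2 genes that only share the prefix, MAP3K7CL and the antisense RNA gene MAPKAPK5-AS1. RNA came from U937, a human monocytic cell line, and in all 5 groups the cells had been differentiated with interferon gamma. In the cross-linked groups the IgG receptor CD64 had been cross-linked for 6 h or 2 h, or the IgG receptor CD32 for 6 h or 2 h. The control had no cross-linking listed and no time given. Each group had 2 arrays, 10 in all, and the labels do not say whether duplicates were separate cultures, so every p-value below measures only the spread between these arrays.

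A MAP kinase cascade is a relay of protein kinases. A MAP4K or a small GTPase activates a MAP3K, which phosphorylates a MAP2K, which in turn phosphorylates a MAPK on its activation loop. The classical output kinases are the ERK, JNK and p38 groups, which phosphorylate transcription factors and further kinases such as the MAPKAPK enzymes. In monocytes and macrophages these pathways lie downstream of Fc gamma receptors and control cytokine production. The cascade signals through phosphorylation, which an mRNA measurement does not show. The values below are therefore levels of the mRNAs that encode the relay.

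Promoter sequences are shown for the 3 genes with both a difference among the 5 groups and a called change of at least 1 log2 unit, namely MAPK6, MAP2K2 and MAP3K5. Each is the run of 250 bases before the start that RefSeq's promoter table on GRCh38.p14 uses for the gene, read 5′ to 3′ on the gene's own strand. Capitals mark matches, on either strand, to an EGR site (GCGNGGGCG) or a GC box (GGGCGG). The windows are chr15:52018969-52019218 on the plus strand for MAPK6, chr19:4124123-4124372 on the minus strand for MAP2K2 and chr6:136793092-136793341 on the minus strand for MAP3K5.
MAPK6: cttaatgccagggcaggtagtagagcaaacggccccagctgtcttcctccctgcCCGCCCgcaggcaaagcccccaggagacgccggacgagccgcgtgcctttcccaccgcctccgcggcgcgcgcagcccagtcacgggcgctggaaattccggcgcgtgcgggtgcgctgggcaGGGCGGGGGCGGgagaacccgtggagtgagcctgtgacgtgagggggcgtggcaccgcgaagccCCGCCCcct
MAP2K2: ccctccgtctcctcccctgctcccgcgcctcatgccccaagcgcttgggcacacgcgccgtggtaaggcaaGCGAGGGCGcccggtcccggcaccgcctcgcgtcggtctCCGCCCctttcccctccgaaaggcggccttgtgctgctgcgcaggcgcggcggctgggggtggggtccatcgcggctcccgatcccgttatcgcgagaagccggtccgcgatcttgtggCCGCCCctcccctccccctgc
MAP3K5: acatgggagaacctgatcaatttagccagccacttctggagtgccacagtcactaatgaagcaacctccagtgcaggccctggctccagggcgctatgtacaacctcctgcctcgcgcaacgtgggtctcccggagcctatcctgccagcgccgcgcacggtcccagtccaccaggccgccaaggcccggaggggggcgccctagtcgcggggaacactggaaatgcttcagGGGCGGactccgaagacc
The MAPK6 window held 4 GC boxes, 2 of which overlap its 1 EGR match. The MAP2K2 window held 2 GC boxes and 1 EGR match, and the MAP3K5 window held 1 GC box. The window of MAPK6 lies within the span that RefSeq gives the gene, chr15:51971825-52067375, which begins upstream of the window.

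The RefSeq promoter table matched 32 of the 35 genes, all but MAP3K7CL, MAPK8IP1 and MAPKAPK2. These windows were rich in G and C, with a median GC content of 73.0%, against 62.4% for the promoters of 15842 protein-coding genes and 58.0% for all 27305 promoters. A GC box stood in 25 of the 32, against 56.0% of protein-coding and 42.3% of all promoters, and an EGR match in 11, against 11.3% and 8.25%. The ETS motif CCGGAAG stood in 3 of the 32, against 11.8% of protein-coding and 8.82% of all promoters, the cAMP response element TGACGTCA in 2, against 2.32% and 1.77%, and CCAAT in 4, against 34.5% and 33.0%. The AP-1 motif TGANTCA stood in none of the 32, against 5.04% of protein-coding and 6.60% of all promoters, and the motif TATAAA in none, against 9.23% and 11.1%. All 7 motifs were searched on both strands, and GC-box and EGR matches can overlap. The shares were not matched for GC content, whose part in these counts was not tested. A match describes letters only.

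The arrays were alike in trimmed mean signal and differed in spread and quality measures. The highest signal was 14536 and 15868 on the CD64 6 h arrays and lay between 27304 and 37994 on the others. The median signal lay between 101.2 and 152.7, and 20.2% to 29.8% of probe sets lay at or under a signal of 37.5, which was used as the floor. Arrays correlated at 0.964 to 0.977 within groups and at 0.925 to 0.971 between groups over all probe sets. Of 8 monocytic marker genes on the array, 7 were above the floor on all 10 arrays, the exception being MPO. Among the T cell, B cell, natural killer, erythroid and platelet, and epithelial and fibroblast markers, 1 gene per list was above it on all arrays. Signal of the 9 probe sets for control transcripts added to each hybridisation averaged 9.03, 10.55, 12.11, 11.03 and 10.38 on the log2 scale in CD64 6 h, CD64 2 h, CD32 6 h, CD32 2 h and control arrays, and the ratio of the actin probe sets at the 3′ and 5′ ends was 1.12, 1.81, 1.99, 1.56 and 1.30 in the same groups. With bulk RNA, fewer cells of a type and less RNA per cell cannot be told apart.

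Of the 35 genes, 24 were above the floor on all 10 arrays and 8 on some, and these 32 were tested. MAP3K10 and MAP3K13 were above it on no array, and MAPK4, an atypical MAP kinase, on 1 array at 63.9, so these 3 were not tested. A gene is said to have changed, or to be called, where limma's moderated test gave a Benjamini-Hochberg adjusted p under 0.05 over all 7708 probe sets tested. By that rule 11 of the 32 changed in at least 1 of 9 comparisons and 21 in none. The matching shares of all probe sets were not counted, so these counts do not set the 32 apart. MAPK6 alone of the 32 changed in all 4 cross-linked groups against control, which was also not counted over all probe sets.

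Between 3 and 5 of the 32 genes changed in each comparison with control. After 6 h of CD64 cross-linking 3 of the 32 were higher than control and 1 lower, against 10.7% and 9.94% of all probe sets. After 2 h of CD64 cross-linking 2 were higher and 3 lower, against 7.64% and 8.24%. For CD32 at 6 h 3 were higher and 2 lower, against 9.63% and 10.3%, and at 2 h 3 were higher and none lower, against 8.86% and 6.60%. At an unadjusted p under 0.05, 37.5%, 31.2%, 25% and 37.5% of the 32 differed from control in CD64 6 h, CD64 2 h, CD32 6 h and CD32 2 h, against 30.6%, 27.9%, 31.5% and 26.6% of all probe sets. In percent, the genes called higher were 9.38%, 6.25%, 9.38% and 9.38% of the 32 for CD64 6 h, CD64 2 h, CD32 6 h and CD32 2 h. The F-test for any difference among the 5 groups called 6 of 32, or 18.8%, against 34.5% of all probe sets. It did not call MAP2K1, MAP2K6, MAP4K4, MAPK12 and MAPKAPK3 (adjusted p 0.0642 to 0.131), which single comparisons below called. These comparisons share the same 2 control arrays. The median log2 difference of the 32 was 0.08, -0.07, 0.00 and 0.10 in CD64 6 h, CD64 2 h, CD32 6 h and CD32 2 h, against -0.04, -0.13, -0.08 and -0.03 for all probe sets. Quantile normalization brought the -0.13 of all probe sets at CD64 2 h to 0.00, which is the shift against which a change in that comparison is read.

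**Figure D1:**
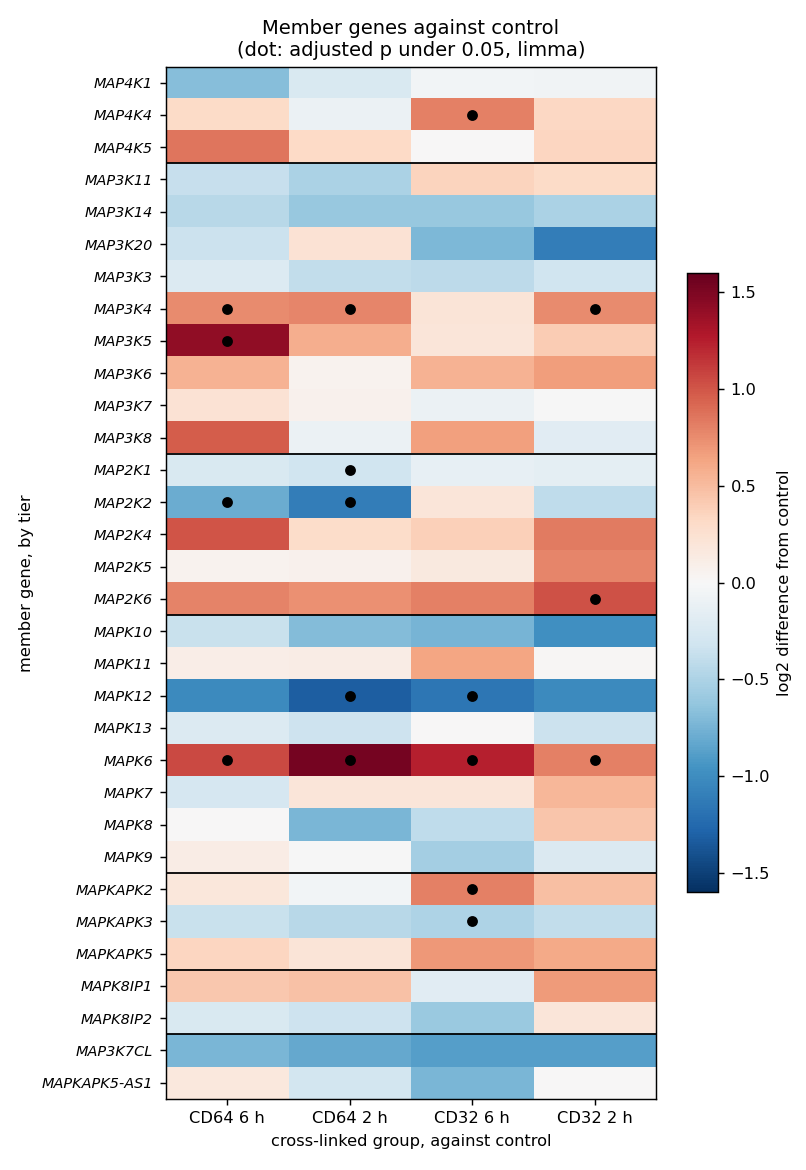
Log2 difference from control (colour) of the 32 tested genes, in rows by tier, in the CD64 6 h, CD64 2 h, CD32 6 h and CD32 2 h groups, with a dot where the adjusted p was under 0.05 in limma. MAPK6 carries a dot in all 4 columns, and 22 of the 32 genes carry none. The matching shares of all probe sets were not counted.

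Among the MAP4K genes, MAP4K4, a Ste20-like kinase that acts above JNK, rose after 6 h of CD32 cross-linking. Its signal averaged 358 ± 30.8 in CD64 6 h, 275 ± 51.7 in CD64 2 h, 509 ± 11.2 in CD32 6 h, 374 ± 115 in CD32 2 h and 291 ± 35.3 in control cells (SD, n = 2 each). The CD32 6 h arrays stood above both control arrays, 1.75-fold higher (log2 difference 0.81 ± 0.24 SE, adjusted p = 0.0351, limma), while the CD64 2 h and CD32 2 h arrays overlapped the control. The call ended without either CD32 6 h array, either CD64 6 h array or either control array (adjusted p 0.0510 to 0.162). Without the variance trend or without the filter on dim probe sets the MAP4K4 call was also lost. MAP4K1, a kinase of blood cells also called HPK1, which had signals of 160 to 338 over the 10 arrays, and MAP4K5 did not pass the test in any comparison. Their differences from control lay between -0.68 and 0.85.

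In the MAP3K tier, MAP3K5 and MAP3K4 changed against control and MAP3K11 between the receptors. MAP3K5, also named ASK1 and known as a stress-activated kinase above JNK and p38, was high in the CD64 6 h cells. Its signals were 609 and 757 in CD64 6 h, 396 and 366 in CD64 2 h, 228 and 369 in CD32 6 h, 322 and 351 in CD32 2 h, and 278 and 232 in control cells. Both CD64 6 h arrays stood above every other array, and the CD32 6 h arrays enclosed the control ones. MAP3K5 rose 2.67-fold in CD64 6 h cells against control (log2 difference 1.42 ± 0.24 SE, 95% interval 0.89 to 1.94, adjusted p = 0.00152, limma). This call was kept under all 16 alternatives tried, 10 of which left out 1 array. At CD64 2 h the difference was 0.58 (interval 0.06 to 1.11, adjusted p = 0.135), at CD32 2 h 0.40 (-0.12 to 0.93) and at CD32 6 h 0.19 (-0.33 to 0.71).

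MAP3K4, which is activated by GADD45 proteins and acts above JNK and p38, rose in 3 of the 4 cross-linked groups. Its mean signal was 559 ± 9.83 in CD64 6 h, 574 ± 43.1 in CD64 2 h, 386 ± 37.1 in CD32 6 h, 573 ± 144 in CD32 2 h and 340 ± 96.7 in control cells (SD, n = 2 each). The CD64 6 h, CD64 2 h and CD32 2 h arrays stood above both control arrays, and those of CD32 6 h overlapped them. The log2 differences from control were 0.75, 0.78 and 0.76 for CD64 6 h, CD64 2 h and CD32 2 h, each with an SE of 0.22 (adjusted p = 0.0349, 0.0359 and 0.0415, limma), and 0.21 for CD32 6 h (interval -0.28 to 0.70). Between CD32 6 h and CD32 2 h the log2 difference was -0.55 and did not pass the test (adjusted p = 0.205). All 3 calls were near the threshold, and all were lost without the variance trend and without the filter on dim probe sets. The CD64 6 h call ended without CD32 6 h array 2, CD64 2 h array 1, either CD64 6 h array or control array 1 (0.0501 to 0.231). The CD64 2 h call ended without any single CD32 6 h, CD64 2 h or CD64 6 h array or control array 1 (0.0503 to 0.224). The CD32 2 h call ended in the same cases and without CD32 2 h array 2 (0.0559 to 0.290). Quantile normalization gave adjusted p = 0.0694 for CD64 6 h and 0.0506 for CD32 2 h, and cyclic loess normalization also ended the calls in these groups.

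MAP3K11, or MLK3, a mixed-lineage kinase above JNK, differed between the receptors and not from control. Its mean signal was 266 ± 30.1 in CD64 6 h, 241 ± 31.2 in CD64 2 h, 438 ± 11.6 in CD32 6 h, 424 ± 2.26 in CD32 2 h and 346 ± 68.9 in control cells (SD, n = 2 each). All 4 CD64 arrays lay below both control arrays and all 4 CD32 arrays above them. Against control the differences were -0.37 in CD64 6 h (interval -0.82 to 0.08), -0.51 in CD64 2 h (-0.97 to -0.06), 0.35 in CD32 6 h (-0.10 to 0.80) and 0.31 in CD32 2 h (-0.14 to 0.76), none of which passed the test.

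The other 6 tested MAP3K genes, MAP3K3, MAP3K6, MAP3K7, MAP3K8, MAP3K14 and MAP3K20, passed the test in no comparison. Their differences from control ran from -1.11 for MAP3K20 in CD32 2 h to 0.97 for MAP3K8 in CD64 6 h. MAP3K7, or TAK1, which links Toll-like and cytokine receptors to JNK, p38 and NF-kappaB, had signals of 291 to 400 over the 10 arrays. Its differences from control were 0.23 in CD64 6 h (interval -0.20 to 0.67), 0.07 in CD64 2 h (-0.36 to 0.51), -0.09 in CD32 6 h (-0.52 to 0.35) and -0.01 in CD32 2 h (-0.45 to 0.42). MAP3K8, or TPL2, which feeds the ERK pathway in activated macrophages, is named after its values were seen. It had signals of 168 and 153 in CD64 6 h cells, against 53.6 and 125 in control cells. The difference of 0.97 had an interval of -0.07 to 2.01 (adjusted p = 0.200, limma).

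In the MAP2K tier, MAP2K2 fell in both CD64 groups. MAP2K1 and MAP2K2 encode MEK1 and MEK2, the paired kinases that activate the ERK kinases. MAP2K2 signals were 662 and 655 in CD64 6 h, 604 and 463 in CD64 2 h, 1258 and 1343 in CD32 6 h, 958 and 768 in CD32 2 h, and 1082 and 1200 in control cells. The 4 CD64 arrays were the lowest of the 10, the CD32 2 h arrays lay below both controls and the CD32 6 h arrays above them. MAP2K2 fell 1.73-fold in CD64 6 h cells (log2 difference -0.79 ± 0.15 SE, interval -1.12 to -0.46, adjusted p = 0.00323, limma) and 2.15-fold in CD64 2 h cells (-1.11 ± 0.15, interval -1.44 to -0.78, adjusted p = 6.78e-04). Both calls were kept under all 16 alternatives. Against control the difference was 0.19 in CD32 6 h (interval -0.14 to 0.52) and -0.41 in CD32 2 h (-0.74 to -0.08, adjusted p = 0.0982), neither of them called.

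MAP2K1 fell in CD64 2 h cells. Its mean signal was 1216 ± 14.9 in CD64 6 h, 1153 ± 37.5 in CD64 2 h, 1316 ± 0.141 in CD32 6 h, 1292 ± 1.91 in CD32 2 h and 1439 ± 19.9 in control cells (SD, n = 2 each), and all 8 cross-linked arrays lay below both controls. The fall in CD64 2 h was 1.25-fold (log2 difference -0.32 ± 0.09 SE, interval -0.51 to -0.13, adjusted p = 0.0288, limma), a comparison in which the median probe set stood at -0.13. Quantile normalization gave -0.34 (adjusted p = 0.0235), and without the variance trend the call was lost. The call ended without either CD64 2 h array or either control array (0.0707 to 0.140). The difference was -0.24 in CD64 6 h (-0.43 to -0.05, adjusted p = 0.0718), -0.13 in CD32 6 h (-0.32 to 0.06) and -0.16 in CD32 2 h (-0.34 to 0.03), none of them called. In CD64 2 h the interval of MAP2K1 did not overlap that of MAP2K2.

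MAP2K6, or MKK6, which activates p38 kinases, rose after 2 h of CD32 cross-linking. Its mean signal was 178 ± 35.8 in CD64 6 h, 168 ± 7.92 in CD64 2 h, 179 ± 32.1 in CD32 6 h, 206 ± 0.919 in CD32 2 h and 102 ± 7.92 in control cells (SD, n = 2 each). All 8 cross-linked arrays stood above both controls. The CD32 2 h signal was 2.03-fold higher (log2 difference 1.02 ± 0.31 SE, adjusted p = 0.0477, limma). Leaving out any 1 of the 10 arrays ended this call (0.0534 to 0.167), as did the replicate number as a block (0.0508). In the other groups the difference was 0.79 in CD64 6 h (interval 0.11 to 1.48), 0.73 in CD64 2 h (0.05 to 1.42) and 0.81 in CD32 6 h (0.13 to 1.50), each with an adjusted p above the threshold (0.104, 0.151 and 0.0953). MAP2K4 and MAP2K5, which activate JNK and ERK5, passed the test in no comparison. The nearest call in the pair, noted after the values were seen, was MAP2K4 in CD64 6 h, at 218 and 190 against 124 and 82.0 in control cells (1.01, interval 0.23 to 1.80, adjusted p = 0.0703).

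**Figure D2:**
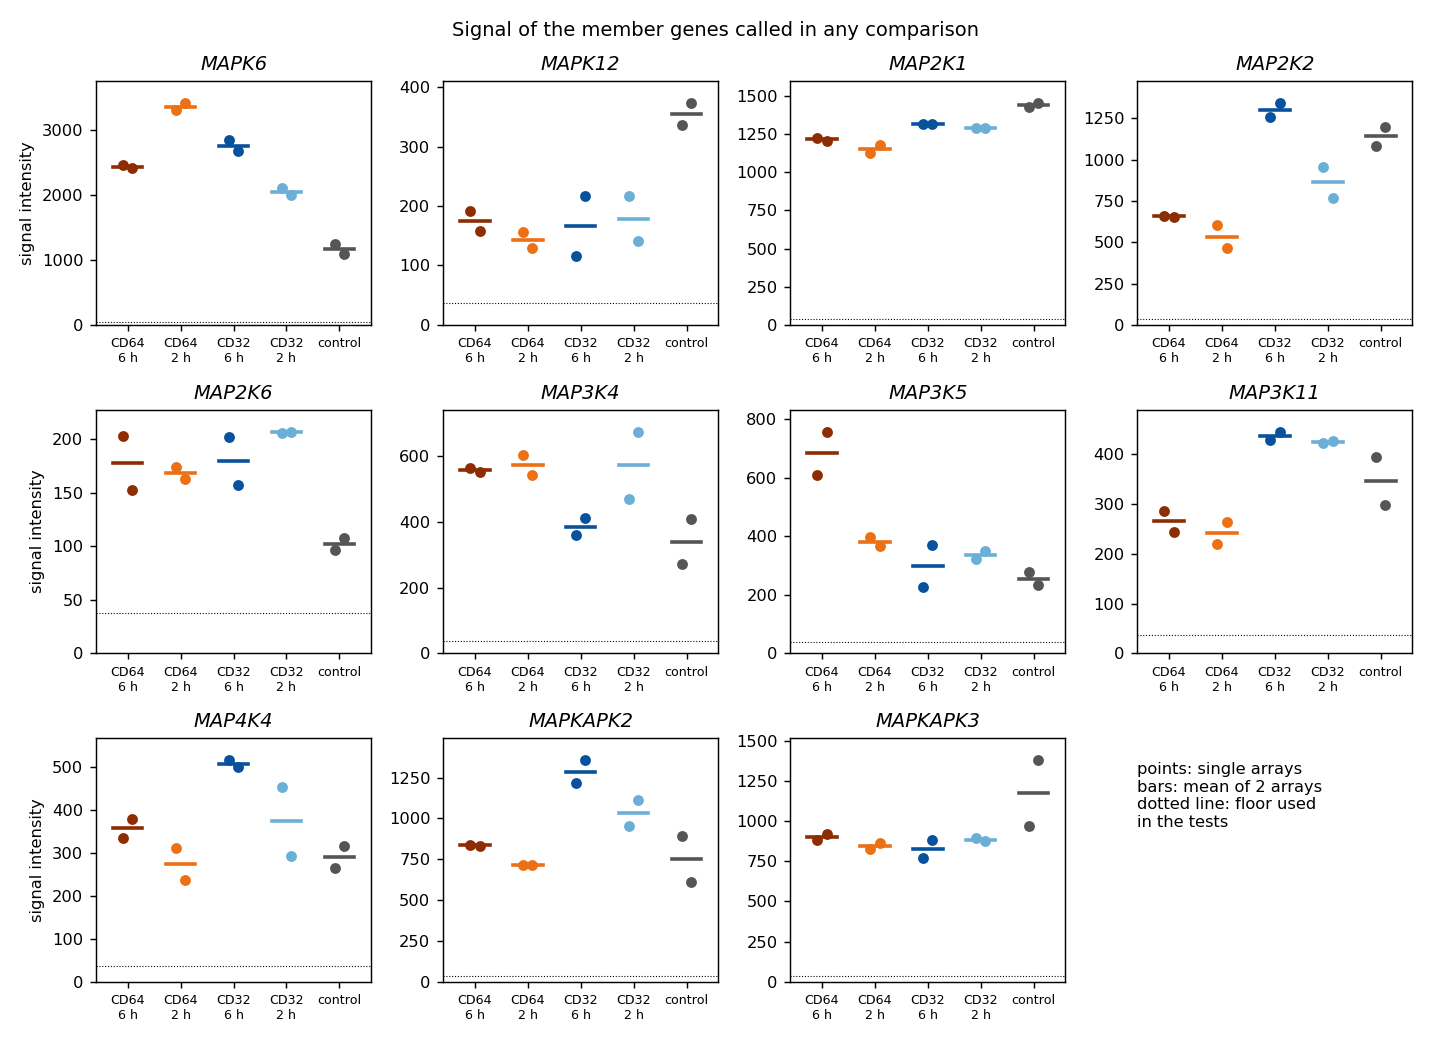
Signal intensity (linear axes from 0, 1 panel per gene) of the 11 genes called in any comparison, in CD64 6 h, CD64 2 h, CD32 6 h, CD32 2 h and control cells; points are single arrays, bars are means of 2 arrays and the dotted line is the floor of 37.5. MAPK6 lies between 1993 and 3415 on the 8 cross-linked arrays and at 1244 and 1097 on the controls, and MAP2K2 is lowest on the 4 CD64 arrays.

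Among the MAP kinases themselves, MAPK6 rose in every cross-linked group. MAPK6 encodes ERK3, an atypical MAP kinase whose protein turns over quickly and which activates MAPKAPK5. The signals were 2459 and 2414 in CD64 6 h, 3311 and 3415 in CD64 2 h, 2843 and 2682 in CD32 6 h, 2114 and 1993 in CD32 2 h, and 1244 and 1097 in control cells. Every cross-linked array stood above both control arrays, and no 2 of the 5 groups overlapped. MAPK6 was 2.09-fold higher in CD64 6 h (log2 difference 1.06, adjusted p = 2.03e-05), 2.88-fold in CD64 2 h (1.53, 9.42e-06), 2.36-fold in CD32 6 h (1.24, 6.33e-06) and 1.76-fold in CD32 2 h (0.81, 1.59e-04), each with an SE of 0.09 (limma, n = 2 per group). These 4 calls were kept under all 16 alternatives, and the highest adjusted p with 1 array left out was 5.32e-04, 4.35e-04, 2.61e-04 and 0.00408 in the same order. From high to low, the group order was CD64 2 h, CD32 6 h, CD64 6 h, CD32 2 h and control. In this order CD32 6 h and CD64 6 h did not differ by the test (-0.18 for CD64 minus CD32, interval -0.38 to 0.02). The MAPK6 probe set carries the s mark of probe sets whose probes match more than 1 transcript, and RefSeq lists 6 pseudogenes named for MAPK6, so the signal may hold RNA of other copies, which was not tested. In all, 12 of the 35 probe sets carry this mark, among them those of MAP2K6, MAP3K4, MAP4K4 and MAPKAPK3. Another 2, those of MAP3K10 and MAPK8, carry an x mark instead, so their signal may likewise hold other RNA, which was not tested.

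MAPK12, which encodes p38 gamma, fell in 2 of the 4 groups. Its mean signal was 175 ± 23.5 in CD64 6 h, 143 ± 19.0 in CD64 2 h, 166 ± 70.9 in CD32 6 h, 179 ± 53.4 in CD32 2 h and 355 ± 25.5 in control cells (SD, n = 2 each). Both control arrays stood above all 8 cross-linked arrays. It fell 2.49-fold in CD64 2 h (log2 difference -1.32 ± 0.36 SE, adjusted p = 0.0307, limma) and 2.24-fold in CD32 6 h (-1.16 ± 0.36, adjusted p = 0.0442). The differences of -1.02 in CD64 6 h and -1.02 in CD32 2 h had adjusted p of 0.0703 and 0.0869 and were not called. Cyclic loess normalization, a fit without the variance trend and one without the filter on dim probe sets each ended the calls in CD64 2 h and CD32 6 h. The CD64 2 h call ended without either CD64 2 h array or either control array (0.0834 to 0.149), and under quantile normalization (-1.10, adjusted p = 0.0720). The CD32 6 h call ended without CD32 2 h array 1, CD32 6 h array 1, any single CD64 array or either control array (0.0532 to 0.275), under quantile normalization (-1.12, 0.0548) and with the replicate number as a block (0.0510).

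The other 6 tested MAP kinase genes passed the test in no comparison. They were MAPK8, MAPK9 and MAPK10, which encode the JNK kinases, MAPK11 and MAPK13, which encode p38 beta and delta, and MAPK7, which encodes ERK5. Their differences from control ran from -0.98 for MAPK10 in CD32 2 h to 0.63 for MAPK11 in CD32 6 h. MAPK9 had signals of 217 to 481 over the 10 arrays. Its differences from control were 0.12 in CD64 6 h (interval -0.48 to 0.73), -0.01 in CD64 2 h (-0.61 to 0.60), -0.55 in CD32 6 h (-1.15 to 0.06) and -0.23 in CD32 2 h (-0.84 to 0.38). MAPK8 and MAPK11 fell under the floor on some arrays, which narrows their fitted differences.

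Of the kinases that MAP kinases activate, MAPKAPK2 and MAPKAPK3 changed in opposite directions after 6 h of CD32 cross-linking. MAPKAPK2, or MK2, is a p38 substrate that stabilises cytokine mRNAs. Its mean signal was 835 ± 1.27 in CD64 6 h, 717 ± 0.707 in CD64 2 h, 1287 ± 99.6 in CD32 6 h, 1033 ± 110 in CD32 2 h and 750 ± 198 in control cells (SD, n = 2 each). Both CD32 groups stood above both control arrays, and both CD64 groups lay between them. MAPKAPK2 rose 1.74-fold in CD32 6 h cells (log2 difference 0.80 ± 0.16 SE, interval 0.44 to 1.16, adjusted p = 0.00523, limma), a call kept under all 16 alternatives. The difference was 0.48 in CD32 2 h (0.13 to 0.84, adjusted p = 0.0720), 0.18 in CD64 6 h (-0.18 to 0.54) and -0.04 in CD64 2 h (-0.40 to 0.32).

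MAPKAPK3, a close relative that p38 also activates, averaged 900 ± 27.2 in CD64 6 h, 846 ± 27.4 in CD64 2 h, 824 ± 77.3 in CD32 6 h, 883 ± 12.1 in CD32 2 h and 1175 ± 288 in control cells (SD, n = 2 each). All 8 cross-linked arrays lay below both control arrays. It fell 1.41-fold in CD32 6 h (log2 difference -0.49 ± 0.15 SE, adjusted p = 0.0422, limma). The call was lost without any 1 array except control array 1 (0.0561 to 0.222), and without that array the adjusted p was 0.00476. The CD32 6 h call was also lost under cyclic loess normalization, without the variance trend and without the filter on dim probe sets. In the other groups the difference was -0.36 in CD64 6 h, -0.45 in CD64 2 h and -0.39 in CD32 2 h (adjusted p = 0.127, 0.0697 and 0.119). MAPKAPK5, which ERK3 activates, was higher than control by 0.21 to 0.70 on the log2 scale over the 4 groups and passed the test in none (lowest adjusted p 0.0687, in CD32 6 h).

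The JNK scaffold genes MAPK8IP1 and MAPK8IP2 passed the test in no comparison, at differences from control of -0.60 to 0.68. Neither did MAP3K7CL or MAPKAPK5-AS1, at -0.88 to 0.17. MAPKAPK5-AS1 lies beside MAPKAPK5 on chromosome 12 and their spans overlap, and how its probe set reads strand is not given in the sources used here. Over all 21 uncalled genes the median difference from control was 0.06 in CD64 6 h, -0.01 in CD64 2 h, -0.09 in CD32 6 h and 0.00 in CD32 2 h.

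Direct comparison of the receptors called 5 of the 32 genes at either time, a count whose matching share of all probe sets was not taken. At 6 h, CD64 against CD32, 1 gene was higher and 3 were lower, against 9.81% and 7.80% of all probe sets. At 2 h, 1 was higher and 2 were lower, against 6.86% and 9.43%. MAP2K2 was lower under CD64 at both times, by 1.97-fold at 6 h (log2 difference -0.98, interval -1.31 to -0.65, adjusted p = 0.00124, limma) and 1.62-fold at 2 h (-0.70, -1.03 to -0.37, adjusted p = 0.00903). The 6 h call was kept under all 16 alternatives, and the 2 h call ended without CD32 2 h array 1 or CD64 2 h array 2 (0.0771 to 0.0877). The MAP2K2 call at 2 h also ended without the variance trend. MAP3K11 was also lower under CD64, by 1.65-fold at 6 h (-0.72 ± 0.20 SE, adjusted p = 0.0323) and 1.77-fold at 2 h (-0.82 ± 0.20, adjusted p = 0.0189). Its 6 h call ended without any single CD32 array or CD64 6 h array (0.0516 to 0.182), and its 2 h call without either CD32 2 h array or CD64 2 h array 1 (0.0882 to 0.121) and under quantile normalization.

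MAP3K5 was 2.34-fold higher under CD64 than under CD32 at 6 h (log2 difference 1.23 ± 0.24 SE, adjusted p = 0.00492, limma), a call that ended without CD64 6 h array 2 (0.0604). At 2 h its difference was 0.18 (interval -0.35 to 0.70). MAPKAPK2 was 1.54-fold lower under CD64 at 6 h (-0.62 ± 0.16, adjusted p = 0.0227) and stood at -0.52 at 2 h (interval -0.88 to -0.16, adjusted p = 0.0512, not called). Its 6 h call ended without any single CD64 6 h or CD32 6 h array (0.0661 to 0.130). This MAPKAPK2 call was also lost without the variance trend and without the filter on dim probe sets. MAPK6 was 1.64-fold higher under CD64 at 2 h (0.71 ± 0.09, adjusted p = 5.99e-04), a call kept under all 16 alternatives. The CD32 6 h group, in which MAP2K2, MAP3K11, MAP4K4 and MAPKAPK2 were highest, also had the highest added-RNA signal, actin ratio and summed monocytic marker signal. That sum over 8 genes was 9749, 6503, 12824, 10028 and 9736 in CD64 6 h, CD64 2 h, CD32 6 h, CD32 2 h and control cells. The CD64 6 h group, in which MAP3K5 was highest, had the lowest added-RNA signal (9.03 on the log2 scale) and actin ratio (1.12). The part of these measures in the differences was not tested.

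**Figure D3:**
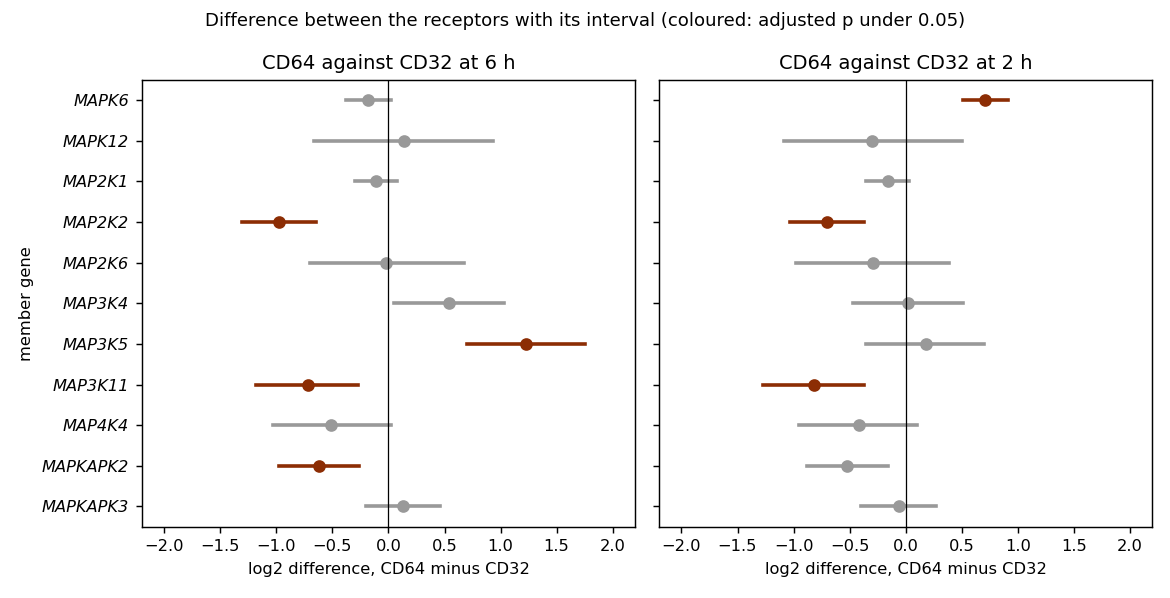
Log2 difference of CD64 minus CD32 cells (point) with its 95% interval (line) for the 11 called genes, at 6 h on the left and at 2 h on the right, coloured where the adjusted p was under 0.05 in limma. MAP2K2 and MAP3K11 lie left of 0 at both times, MAP3K5 lies at 1.23 at 6 h and 0.18 at 2 h, and MAPK6 lies at -0.18 at 6 h and 0.71 at 2 h.

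Time changed MAPK6 under both receptors, MAP3K5 under CD64 and MAP2K2 under CD32. For CD64, 6 h against 2 h, 1 of the 32 was higher and 1 lower, against 7.56% and 6.25% of all probe sets. For CD32, 2 were higher and none lower, against 2.04% and 2.43%. At an unadjusted p under 0.05 (limma), 15.6% of the 32 differed in either direction between the CD32 times, against 18.6% of all probe sets. MAPK6 moved in opposite directions, 1.38-fold lower at 6 h than at 2 h under CD64 (log2 difference -0.46 ± 0.09 SE, adjusted p = 0.00648, limma) and 1.35-fold higher at 6 h than at 2 h under CD32 (0.43 ± 0.09, adjusted p = 0.0246). The first of these calls ended without CD64 6 h array 2 (0.0549), and the second without any single CD32 array (0.0710 to 0.171). Both of these time calls were also lost without the variance trend. The interaction of receptor and time tests directly whether the time difference of MAPK6 differed between the receptors. It was called for MAPK6 alone of the 32, at -0.89 ± 0.13 (interval -1.17 to -0.61, adjusted p = 0.00154, limma), against 11.5% of all probe sets, and the call was kept under all 16 alternatives.

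MAP3K5 was 1.79-fold higher at 6 h than at 2 h under CD64 (log2 difference 0.84 ± 0.24 SE, adjusted p = 0.0393, limma), and -0.21 under CD32 (interval -0.74 to 0.31). Its interaction of 1.05 did not pass the test (interval 0.31 to 1.79, adjusted p = 0.0719). The CD64 time call ended without either CD32 2 h array, any single CD64 array or control array 2 (0.0503 to 0.254), and under quantile normalization (0.66, adjusted p = 0.113). The MAP3K5 time call was also lost under cyclic loess normalization, without the variance trend and without the filter on dim probe sets. MAP2K2 was 1.51-fold higher at 6 h than at 2 h under CD32 (0.60 ± 0.15, adjusted p = 0.0495). That call ended without any single CD32, CD64 6 h or control array (0.0620 to 0.290). It was also lost without the variance trend and without the filter on dim probe sets. Under CD64 the MAP2K2 time difference was 0.32 (interval -0.01 to 0.65).

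Around the relay, 6 lists of other pathway genes held 106 genes, of which 74 were tested. These lists were chosen with earlier results of these data known. Their shares beside those of all probe sets, here and below, are therefore description and not a test. Of these 74, 13 were higher and 8 lower than control in CD64 6 h, 12 higher and 6 lower in CD64 2 h, 18 higher and 8 lower in CD32 6 h, and 15 higher and 8 lower in CD32 2 h. The higher calls were 17.6%, 16.2%, 24.3% and 20.3% of the 74 in CD64 6 h, CD64 2 h, CD32 6 h and CD32 2 h, against 10.7%, 7.64%, 9.63% and 8.86% of all probe sets. The lower calls were 10.8%, 8.11%, 10.8% and 10.8% in the same groups, against 9.94%, 8.24%, 10.3% and 6.60%. The F-test called 35 of the 74, or 47.3%, against 34.5% of all probe sets. The median difference of the 74 was 0.10, -0.19, 0.18 and 0.12 in CD64 6 h, CD64 2 h, CD32 6 h and CD32 2 h, against -0.04, -0.13, -0.08 and -0.03 for all probe sets. The genes named from each list were those with the largest called changes from control.

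Upstream, of 18 Ras pathway and adaptor genes 5.56% were higher and 11.1% lower in CD64 6 h (all probe sets 10.7% and 9.94%), 11.1% higher and none lower in CD64 2 h (7.64% and 8.24%), 16.7% higher and 11.1% lower in CD32 6 h (9.63% and 10.3%), and 11.1% higher and 5.56% lower in CD32 2 h (8.86% and 6.60%). GAB2, a docking protein below growth factor and Fc receptors, had signals of 244 and 213 in CD64 6 h, 394 and 479 in CD64 2 h, 303 and 234 in CD32 6 h, 319 and 255 in CD32 2 h, and 610 and 589 in control cells. All cross-linked arrays lay below both controls, and GAB2 fell 2.63-fold in CD64 6 h (log2 difference -1.39, adjusted p = 7.91e-04, limma), 2.25-fold in CD32 6 h (-1.17, 0.00260) and 2.10-fold in CD32 2 h (-1.07, 0.00580). CDC42, a small GTPase that activates MAP3K enzymes, was 1.32-fold higher than control in CD32 6 h and 1.75-fold higher in CD32 2 h (adjusted p = 0.0459 and 0.00160), and it was 2.01-fold lower under CD64 than under CD32 at 2 h (-1.01, adjusted p = 5.54e-04). RASGRP2, an exchange factor for Rap and Ras GTPases, was 1.71-fold lower than control in CD32 6 h (-0.78, adjusted p = 0.0149). Of 4 MAP3K or MAP4K kinases with other names, only ARAF, a RAF kinase above MEK, was called against control. ARAF fell 1.66-fold in CD64 6 h (-0.73, adjusted p = 0.0366) and 2.16-fold in CD64 2 h (-1.11, adjusted p = 0.00619). In these groups 9.94% and 8.24% of all probe sets were lower. The ARAF difference was -0.60 in CD32 6 h and -0.59 in CD32 2 h, neither called (adjusted p = 0.0839 and 0.104, limma). All cross-linked arrays lay below both controls. Between the receptors ARAF was not called at 6 h (-0.13, adjusted p = 0.766) or 2 h (-0.52, adjusted p = 0.147).

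Of 13 tested scaffolds, adaptors and activators, 3 (23.1%) were higher and none lower in CD64 6 h, against 10.7% and 9.94% of all probe sets, and 1 (7.69%) was higher and none lower in CD64 2 h, against 7.64% and 8.24%. In each CD32 group 2 (15.4%) were higher and 2 lower, against 9.63% and 10.3% of all probe sets at 6 h and 8.86% and 6.60% at 2 h. The pseudokinase TRIB1, which binds MAP2K enzymes, had signals of 290 and 222 in CD64 6 h, 95.0 and 114 in CD64 2 h, 578 and 466 in CD32 6 h, 208 and 317 in CD32 2 h, and 94.4 and 60.5 in control cells. It was highest in CD32 6 h, 6.87-fold above control (log2 difference 2.78 ± 0.34 SE, adjusted p = 2.10e-04, limma). TRIB1 was also higher than control in CD64 6 h (3.35-fold, adjusted p = 0.00381) and CD32 2 h (3.40-fold, adjusted p = 0.00524). Between the receptors, CD64 2 h was 2.47-fold below CD32 2 h (-1.30, adjusted p = 0.0235), and the 6 h difference was not called (-1.03, adjusted p = 0.0600). TRIB3, a related pseudokinase, was higher than control in all 4 groups, by 4.33-fold in CD64 6 h, 1.81-fold in CD64 2 h, 3.64-fold in CD32 6 h and 5.21-fold in CD32 2 h. It was 2.87-fold lower under CD64 than under CD32 at 2 h (-1.52, adjusted p = 3.27e-05) and had a called interaction of 1.77 (adjusted p = 1.44e-04). GADD45B, one of the activators of MAP3K4, fell 1.64-fold in CD32 6 h (-0.71, adjusted p = 0.0217) and 1.71-fold in CD32 2 h (-0.77, adjusted p = 0.0192).

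Of 8 tested kinases that MAP kinases activate, a list without the MAPKAPK genes, none was called in CD64 6 h by limma, against 10.7% higher and 9.94% lower of all probe sets, and 25% had an unadjusted p under 0.05, against 30.6%. In CD64 2 h 1 (12.5%) was higher and 1 lower, against 7.64% and 8.24% of all probe sets. In CD32 6 h 2 (25%) were higher and none lower, against 9.63% and 10.3%, and in CD32 2 h 1 (12.5%) was higher and none lower, against 8.86% and 6.60%. RPS6KA1, the ERK-activated kinase RSK1, had signals of 736 and 806 in CD64 6 h, 569 and 722 in CD64 2 h, 1474 and 1463 in CD32 6 h, 1192 and 1308 in CD32 2 h, and 1074 and 948 in control cells. All CD64 arrays lay below both controls and all CD32 arrays above them, as for MAP3K11. CD64 was lower than CD32 by 1.91-fold at 6 h (log2 difference -0.93, adjusted p = 7.54e-04, limma) and by 1.95-fold at 2 h (-0.96, adjusted p = 8.05e-04). MKNK2, a kinase of the translation factor eIF4E, was 1.50-fold higher than control in CD64 2 h, 1.43-fold in CD32 6 h and 1.58-fold in CD32 2 h (adjusted p = 0.00442, 0.00639 and 0.00210).

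Negative regulators were called in both directions. Of 15 tested phosphatases and inhibitors, 5 were higher and 2 lower in CD64 6 h (33.3% and 13.3%, against 10.7% and 9.94% of all probe sets), and 5 higher and 1 lower in CD64 2 h (33.3% and 6.67%, against 7.64% and 8.24%). In CD32 6 h 6 were higher and 1 lower (40.0% and 6.67%, against 9.63% and 10.3%), and in CD32 2 h 6 were higher and 2 lower (40.0% and 13.3%, against 8.86% and 6.60%). DUSP6, the phosphatase that inactivates ERK, had signals of 620 and 574 in CD64 6 h, 432 and 326 in CD64 2 h, 580 and 580 in CD32 6 h, 421 and 421 in CD32 2 h, and 206 and 118 in control cells. It rose in all 4 groups, by 3.83-fold, 2.41-fold, 3.72-fold and 2.70-fold in that order (adjusted p = 2.57e-04, 0.00584, 3.19e-04 and 0.00276, limma). DUSP3, which acts on ERK and JNK, fell in all 4, by 3.51-fold, 2.73-fold, 1.89-fold and 2.18-fold (adjusted p = 4.01e-05, 3.51e-04, 0.00327 and 0.00140). SPRY2, an inhibitor of signalling from receptor tyrosine kinases to ERK, was higher than control by 1.89-fold in CD64 2 h, 4.31-fold in CD32 6 h and 2.22-fold in CD32 2 h. It was 2.85-fold lower under CD64 than under CD32 at 6 h (-1.51, adjusted p = 6.77e-04) and had a called interaction of -1.29 (adjusted p = 0.0178). DUSP5, a nuclear ERK phosphatase, rose in all 4 groups against control, by 3.50-fold in CD64 6 h, 1.62-fold in CD64 2 h, 6.74-fold in CD32 6 h and 4.15-fold in CD32 2 h (adjusted p 0.0472 at most). Between the receptors it was 1.93-fold lower under CD64 at 6 h and 2.56-fold lower at 2 h (adjusted p = 0.0108 and 0.00163).

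Of 16 tested transcription factors that MAP kinases phosphorylate, 4 were higher and 3 lower in CD64 6 h (25% and 18.8%, against 10.7% and 9.94% of all probe sets), and 3 higher and 3 lower in CD64 2 h (18.8% and 18.8%, against 7.64% and 8.24%). In CD32 6 h 5 were higher and 3 lower (31.2% and 18.8%, against 9.63% and 10.3%), and in CD32 2 h 4 were higher and 3 lower (25% and 18.8%, against 8.86% and 6.60%). JUND, a JUN family member, had signals of 1137 and 1099 in CD64 6 h, 1386 and 1516 in CD64 2 h, 2011 and 1984 in CD32 6 h, 1728 and 1594 in CD32 2 h, and 649 and 646 in control cells. All cross-linked arrays lay above both controls, and the interaction of receptor and time was -0.64 (adjusted p = 0.0103, limma), of the same sign as that of MAPK6. MYC fell in all 4 groups against control, by 3.04-fold in CD64 6 h, 1.54-fold in CD64 2 h, 5.69-fold in CD32 6 h and 4.17-fold in CD32 2 h (adjusted p 0.0140 at most). It fell less under CD64, where it was higher than under CD32 by 1.87-fold at 6 h (0.90, adjusted p = 0.00158) and 2.71-fold at 2 h (1.44, adjusted p = 1.36e-04). MEF2A, a target of p38 and ERK5, had signals of 430 and 377 in CD64 6 h, 220 and 174 in CD64 2 h, 136 and 148 in CD32 6 h, 226 and 207 in CD32 2 h, and 133 and 122 in control cells. As with MAP3K5, both CD64 6 h arrays stood above every other array. That group also had the lowest added-RNA signal and actin ratio, whose part was not tested. MEF2A was 3.16-fold higher than control in CD64 6 h (1.66 ± 0.27 SE, adjusted p = 0.00114) and 2.84-fold higher under CD64 than under CD32 at 6 h (1.50, adjusted p = 0.00298).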

How the data were processed

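The series table held linear signal intensity as deposited, with a value for each probe set on each 1-colour oligonucleotide array. The authors had scaled it: after trimming 2% of probe sets at each end, every array had a mean intensity of 500.5 or 500.6. The software is not given in the sources used here. Gene names came from the platform annotation. Of 8746 probe sets other than 47 controls, 7840 had 1 symbol, 388 several and 518 none. One probe set pairing a MAP2K symbol with another symbol was not used. One CD32 2 h array has a source name that reads otherwise, and its title and description were followed.

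Log2 was taken after raising lower values to a floor of 37.5 (percentile 25). Probe sets above it on at least 2 arrays were tested. A model with 1 term per group was fitted to all 10 arrays with limma 3.58.1 in R 4.3.3 (eBayes with a variance trend, 5 residual degrees of freedom, prior 5.65). Tests were two-sided, adjusted by Benjamini-Hochberg over 7708 probe sets and called under 0.05. The fit was tested on simulated data, where a limit on false calls was set only for probe sets averaging more than 1 log2 unit above the floor. A gene with an F-test call and a called change of at least 1 log2 unit is given by array, other called genes by group means, and the 3 uncalled genes with the highest mean, MAPK9, MAP3K7 and MAP4K1, by their range. From each pathway list up to 4 called genes with the largest change from control could be named. Of those, RRAS2, TAB1 and FOSL1 were left out because arrays of theirs lay under the floor. The genes and lists were chosen with earlier results of these data known. The number of arrays limits the precision.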

Additional observations from a re-analysis of the deposited data

Results flagged for a closer look

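The difference between 6 h and 2 h differed between the receptors for MAPK6, by the test of the interaction itself. The interaction, the CD64 difference minus the CD32 difference, was -0.89 on the log2 scale (interval -1.17 to -0.61, adjusted p = 0.00154, limma, n = 2 arrays per group). Both CD64 6 h arrays lay below both CD64 2 h arrays, while both CD32 6 h arrays lay above both CD32 2 h arrays. Groups of 2 arrays are too small for a check of single outlying arrays.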

How the results depend on the processing

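No called change of the cascade genes reversed. There were 29 calls and 16 alternatives, which gave 464 values, of which 329 kept the call and 135 lost it. Kept in all 16 were 11 calls, those of MAPK6 against control in all 4 groups, at 2 h between receptors and in the interaction, of MAP2K2 in CD64 6 h and 2 h and between receptors at 6 h, of MAP3K5 in CD64 6 h and of MAPKAPK2 in CD32 6 h. Leaving out 1 array in turn gave 3 to 6 called genes in CD64 6 h against control (4 with all arrays), 2 to 5 in CD64 2 h (5), 2 to 4 in CD32 6 h (5) and 1 to 4 in CD32 2 h (3). It gave 1 to 4 between receptors at 6 h (4), 2 to 4 at 2 h (3), 0 to 2 for time under CD64 (2), 0 to 2 for time under CD32 (2), 1 to 2 for the interaction (1) and 4 to 8 in the F-test (6). The count for CD64 2 h was 2 without either CD64 2 h array, that between receptors at 6 h was 1 without CD64 6 h array 2, that for time under CD32 was 0 without any single CD32 array, that for time under CD64 was 0 without CD64 6 h array 2, that for CD32 6 h was 2 without CD32 6 h array 1 or either CD64 6 h array, and that for CD32 2 h was 1 without CD32 2 h array 2 or any single array of the other cross-linked groups. Cyclic loess normalization gave 7 called genes in CD64 6 h and 1 for time under CD64, and quantile normalization gave 1 for time under CD64. Without the filter on dim probe sets the counts were 3 in CD64 2 h, 5 in CD32 2 h, 1 for time under CD64 and 1 for time under CD32. Without the variance trend they were 2 in CD64 2 h, 0 for time under CD64 and 0 for time under CD32. A floor at percentile 10 gave 5 between receptors at 2 h. Of the 29 calls, 6 were lost with cyclic loess, 6 with quantile normalization, 10 without the filter, 14 without the variance trend, 2 with the replicate block, 0 at the lower floor and 8 to 13 without 1 array. The causes were not tested. Only the control arrays carry numbers in the labels, and the deviations of arrays of like number correlated at -0.141 to 0.285 over 10 pairs of groups, above 0.1 only among CD64 6 h, CD64 2 h and control, so the numbers were not taken as pairs. With the replicate number as a block the counts were 4, 6, 4 and 2 in CD64 6 h, CD64 2 h, CD32 6 h and CD32 2 h, 4 and 4 between receptors at 6 h and 2 h, 2 and 2 for time under CD64 and CD32, 1 for the interaction and 6 in the F-test. Averaging several probe sets per gene was not run, because each of the 35 genes had 1. Signals near the floor limit what can be said of MAP2K5, MAPK8, MAPK11, MAPK8IP1 and MAP3K7CL.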
